A study of Mus musculus with 6 samples.

Results

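The genes described here are 7 matrix metalloproteinases (Mmp2, Mmp9, Mmp12, Mmp13, Mmp14, Mmp19 and Mmp27) and 3 of their tissue inhibitors (Timp1, Timp2 and Timp3). They were taken by symbol from the 55291 gene symbols of the deposited table, and all 10 were found. Their messenger RNA was measured in TREM2+ macrophages (TREM2_pos_TAM, 3 libraries) and in TREM2- macrophages (TREM2_neg_TAM, 3 libraries), both from liver tumours of mice with hepatocellular carcinoma. TREM2 is a lipid-sensing surface receptor of myeloid cells. The sources used here give neither strain, age nor tumour model, nor how the cells were separated or whether replicates came from separate animals. The p-values therefore measure the spread between these libraries, which may be technical.

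Matrix metalloproteinases are zinc-dependent enzymes that are made as inactive precursors and cleave collagens, elastin, gelatins and many other proteins outside the cell. Tissue inhibitors of metalloproteinases (TIMPs) bind the active site and block it. In tumours, macrophages are a known source of both, and the net activity depends on protease, inhibitor and precursor processing together, of which transcript levels show only the first step.

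In mm10 coordinates of GENCODE M21, where all 10 are annotated as protein coding, Mmp12 (chr9:7344381-7369499, + strand), Mmp13 (chr9:7272514-7283331, + strand) and Mmp27 (chr9:7571396-7581885, + strand) share a cluster. Mmp14 (chr14:54431612-54445364, + strand), Mmp9 (chr2:164940780-164955850, + strand), Mmp2 (chr8:92827291-92853420, + strand) and Mmp19 (chr10:128790910-128800824, + strand) lie elsewhere. The inhibitors are Timp1 (chrX:20870166-20874735, + strand), Timp2 (chr11:118301069-118355740, - strand) and Timp3 (chr10:86300372-86349506, + strand).

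Each library was rescaled here to a total of 1000000, and the resulting length-scaled level is called TPM. Recovered depth lay between 12699742 and 17395970 reads in TREM2+ libraries, against 11644659 to 20205922 reads in TREM2- libraries. Trem2 itself averaged 37.0 TPM in TREM2+ libraries, against 19.5 TPM in TREM2- libraries (adjusted p = 0.0855 in limma), and it was detected in all 6 libraries. All 10 macrophage markers were present in every library and summed to between 34649 and 45278 TPM in TREM2+ libraries, against 58696 to 75794 TPM in TREM2- libraries. Among them Cd68 lay between 1635 and 2081 TPM in TREM2+ libraries, against 1169 to 1609 TPM in TREM2- libraries. Markers of neutrophils were also abundant in both groups, and their 10 genes summed to between 15665 and 19657 TPM in TREM2+ libraries, against 18239 to 22698 TPM in TREM2- libraries. Basophil and mast cell markers summed to between 17.0 and 26.7 TPM in TREM2+ libraries, against 117 to 214 TPM in TREM2- libraries, with 3 of 6 called lower. Of the hepatocyte, T or NK cell and B or plasma cell markers 0 were called, and at an unadjusted p under 0.05, 3 T or NK cell markers were lower. The Gm10800 repeat family, 12 genes whose transcripts share sequence, took 0.70%, 5.05% and 17.5% of the signal in TREM2+ replicates 1, 2 and 3, against 0.43%, 12.93% and 24.6% in TREM2- replicates 1, 2 and 3. Its share was highest in the library numbered 3 of each group, and TREM2- replicate 2 came next after these. In libraries made from many cells, more cells of a type and more RNA per cell cannot be told apart.

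The comparison asks whether TREM2+ and TREM2- tumour macrophages differ in matrix-degrading enzymes and in the inhibitors that restrain them. Mmp12, Mmp13, Mmp14 and Mmp27 rose 3.18-fold to 4.35-fold in mean TPM in the TREM2+ libraries, and Timp3 rose 6.74-fold at a low level. Mmp2, Mmp9, Mmp19, Timp1 and Timp2 had positive log2 fold changes between 0.56 and 0.72 that did not pass the test. Of the 7 proteases 4 were called higher and 0 lower, and of the 3 inhibitors 1 was called higher and 0 lower, by limma at an adjusted p under 0.05. The inhibitor called, Timp3, entered the test only because it reached 1 TPM in the TREM2+ libraries, so its call adds no support. At an unadjusted p under 0.05, and with limma's voom on recovered reads, no member was lower either. Over all 13788 genes tested, 2.05% were called higher and 0.37% lower. Of the 5 calls, 3 were left without TREM2+ replicate 1 or without TREM2- replicate 3, and 0 without both libraries numbered 3, a fit in which 9 members were tested and 4 were higher at an unadjusted p under 0.05. The median log2 fold change was 1.58 for the proteases and 0.68 for the inhibitors, beside -0.09 for all genes tested.

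**Figure D1:**
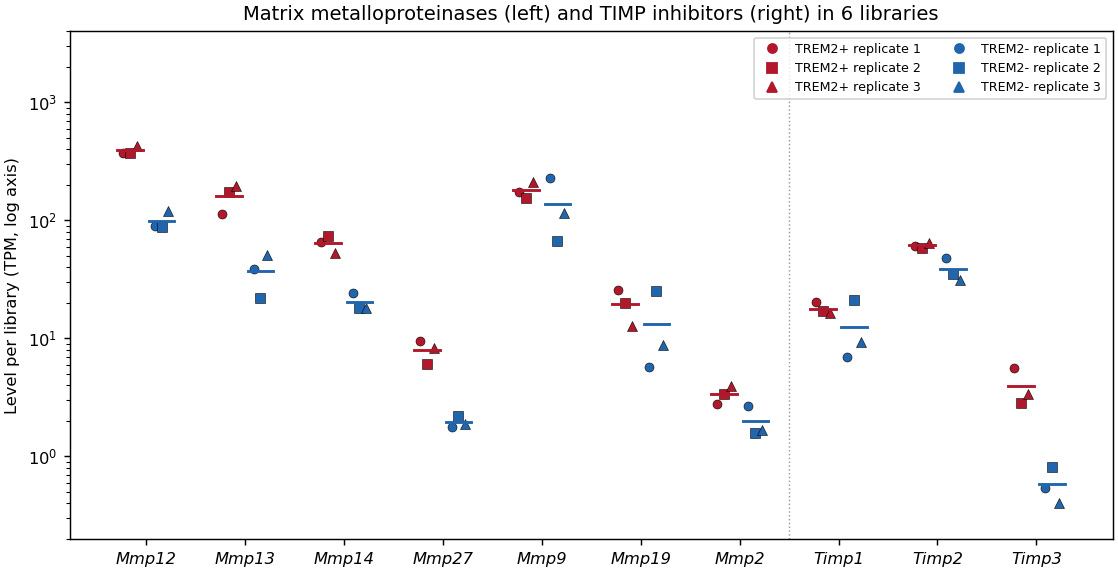
Level of each gene in each library (TPM, log axis), with TREM2+ libraries in red and TREM2- libraries in blue, symbols for replicates and bars for group means (n = 3). The groups stand apart for Mmp12, Mmp13, Mmp14, Mmp27, Mmp2, Timp2 and Timp3, and overlap for Mmp9, Mmp19 and Timp1.

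Mmp12 encodes macrophage elastase, which degrades elastin and is made mostly by macrophages. It stood at 370, 374 and 429 TPM in TREM2+ replicates 1, 2 and 3, against 89.8, 87.4 and 120 TPM in TREM2- replicates 1, 2 and 3. Every TREM2+ library lay above every TREM2- library, and the highest and lowest TREM2+ libraries differed by only 1.16-fold. Its log2 fold change was 1.98 ± 0.22 (SE, n = 3 against 3) with adjusted p = 0.00502 in limma. Mmp12 was the most abundant of the 10 genes over all libraries, at a mean of 245 TPM, and the value rested on 4716 to 20665 reads per library.

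Mmp13 encodes the main interstitial collagenase of rodents, which cuts fibrillar collagen. Its levels were 114, 174 and 197 TPM in TREM2+ replicates 1, 2 and 3, against 38.7, 22.2 and 50.5 TPM in TREM2- replicates 1, 2 and 3. The groups did not overlap, although both spread more widely than for Mmp12. The log2 fold change of 2.13 ± 0.34 (adjusted p = 0.0147 in limma) was the largest among the 10 genes. In both groups replicate 3 was the library with the highest Mmp12 and the highest Mmp13.

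Mmp12 and Mmp13 lie next to each other in the metalloproteinase cluster of chromosome 9 and rose together, so the sequence before their annotated starts is shown. Promoters of 300 bases from RefSeq (build GRCm38.p6, the same assembly as mm10) were found for 7 of the 10 genes, namely Mmp12, Mmp13, Mmp14, Mmp27, Timp1, Timp2 and Timp3. They were searched on both strands for the AP-1 motif TGANTCA, the site of Fos and Jun proteins that is well known from metalloproteinase promoters. The 150 bases before each start are printed 5′ to 3′ on the gene's strand, with AP-1 matches in capitals. Mmp12 has 2 annotated starts, and Mmp27, a cluster neighbour that also rose, is shown beside them.
Mmp13, chr9:7272364-7272513, + strand: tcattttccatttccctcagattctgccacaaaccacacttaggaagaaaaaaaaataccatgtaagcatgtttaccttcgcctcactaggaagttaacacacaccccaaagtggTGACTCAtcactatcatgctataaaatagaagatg
Mmp12, downstream start, chr9:7347224-7347373, + strand: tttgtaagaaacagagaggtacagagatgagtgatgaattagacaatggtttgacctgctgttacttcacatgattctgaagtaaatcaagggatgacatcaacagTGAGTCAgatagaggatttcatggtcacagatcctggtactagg
Mmp12, upstream start, chr9:7344247-7344396, + strand: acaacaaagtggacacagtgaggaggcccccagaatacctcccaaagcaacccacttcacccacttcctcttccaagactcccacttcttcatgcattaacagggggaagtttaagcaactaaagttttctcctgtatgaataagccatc
Mmp27, chr9:7571246-7571395, + strand: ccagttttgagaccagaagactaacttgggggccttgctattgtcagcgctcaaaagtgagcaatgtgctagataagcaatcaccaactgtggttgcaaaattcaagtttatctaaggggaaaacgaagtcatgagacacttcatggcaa

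The match in Mmp13 begins at position -35 relative to the start, and the match at the downstream start of Mmp12 begins at position -44. No match was found in the 300-base windows of the upstream Mmp12 start or of Mmp14, Mmp27, Timp1, Timp2 and Timp3. The Timp2 window belongs to a start at 118355411 and lies inside the GENCODE gene, whose own start is 118355740. The bases before that GENCODE start of Timp2 were not searched. Of all 32851 promoters of this length in the table, 7.81% hold a match. The ETS core AGGAAG was also searched, on both strands, and occurs in 35.4% of these promoters. It was found before Mmp13 at positions -109 and -62, before the upstream start of Mmp12 at -87, and before Mmp14 at -209. Timp1 holds it at -175, -99 and 41, and Timp3 at -204. These matches describe the letters in these windows only.

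The AP-1 and ETS factors themselves were part of a list of 16 genes, of which 15 were tested, 1 was called higher and 0 lower. The median log2 fold change of the list was 0.06, beside -0.09 for all genes tested, and at an unadjusted p under 0.05 the counts were 2 higher and 0 lower. With voom 2 were higher and 0 lower. Over all genes tested, 1027 were higher and 736 lower of 13788 at the unadjusted threshold, and 447 and 171 of 13350 with voom. The gene called was Etv5, an ETS factor, at 22.9, 19.6 and 22.4 TPM in TREM2+ replicates 1, 2 and 3, against 5.66, 6.44 and 6.82 TPM in TREM2- replicates 1, 2 and 3 (log2 fold change 1.63 ± 0.21, adjusted p = 0.00622 in limma). Ets2, another ETS factor, had a log2 fold change of 1.09 ± 0.27 (adjusted p = 0.0872 in limma) with no overlap of the groups. Jun, a subunit of AP-1, had 0.76 ± 0.39 (adjusted p = 0.498 in limma) and overlapping groups.

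Mmp14 encodes the membrane-anchored collagenase that also converts the Mmp2 precursor on the cell surface. It measured 65.4, 74.2 and 53.0 TPM in TREM2+ replicates 1, 2 and 3, against 24.3, 18.2 and 18.0 TPM in TREM2- replicates 1, 2 and 3. The lowest TREM2+ library was still above the highest TREM2- library. On the log2 scale the difference was 1.62 ± 0.23 (adjusted p = 0.00966 in limma), and the calls of Mmp12, Mmp13 and Mmp14 held whichever single library was left out (6 of 6 fits each). For Mmp13 this was close to the threshold without TREM2- replicate 1 (adjusted p = 0.0498 in limma). Mmp13 lost the call with no low-value filter (adjusted p = 0.0843 in limma) and without the repeat family and mitochondrial genes (adjusted p = 0.0506 in limma). The call was also lost with replicate number as a block (adjusted p = 0.0563 in limma).

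Mmp27 is a little-studied member of the chromosome 9 cluster, related in sequence to the stromelysins. It had 9.57, 6.03 and 8.25 TPM in TREM2+ replicates 1, 2 and 3, against 1.78, 2.18 and 1.90 TPM in TREM2- replicates 1, 2 and 3. The groups stood apart at a low level, on 95 to 163 reads in TREM2+ libraries, against 27 to 36 reads in TREM2- libraries. The log2 fold change was 1.58 ± 0.25 (adjusted p = 0.0135 in limma). Mmp27 lost the call without TREM2+ replicate 1 (adjusted p = 0.0633 in limma) and without TREM2- replicate 3 (adjusted p = 0.0666 in limma), at log2 fold changes of 1.45 and 1.57.

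**Figure D2:**
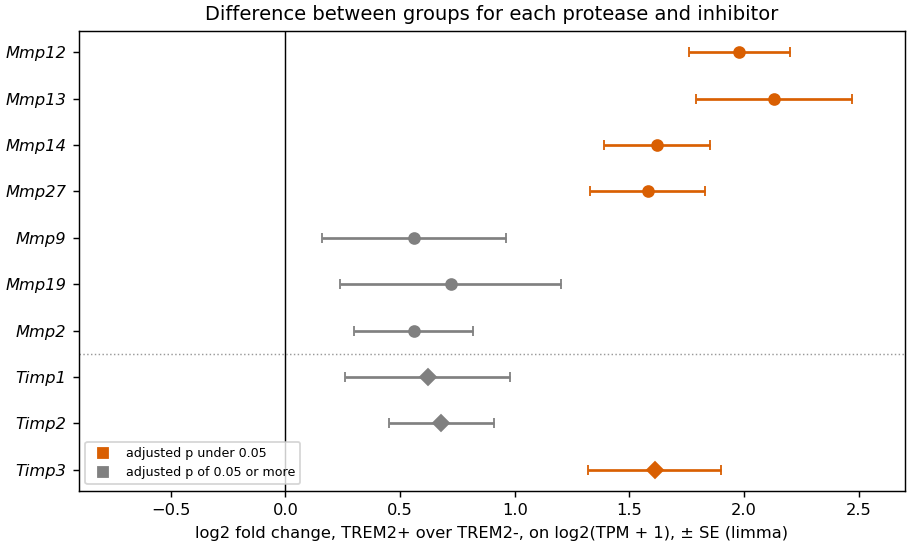
log2 fold change of each gene, TREM2+ over TREM2-, with its standard error from the limma fit over 3 against 3 libraries. The genes past the adjusted threshold, in orange, lie between 1.58 and 2.13, and the others, in grey, between 0.56 and 0.72.

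Mmp9 and Mmp2 encode the gelatinases, which digest denatured collagen and basement membrane collagen. Mmp9, stored in neutrophil granules and also made by macrophages, was at 175, 155 and 211 TPM in TREM2+ replicates 1, 2 and 3, against 228, 66.8 and 116 TPM in TREM2- replicates 1, 2 and 3. TREM2- replicate 1 held the highest level of all 6 libraries and TREM2- replicate 2 the lowest, a 3.42-fold span within that group beside 1.36-fold among the TREM2+ libraries. A log2 fold change of 0.56 ± 0.40 did not pass (adjusted p = 0.682 in limma). It was 1.01 without TREM2- replicate 1 and 0.14 without TREM2- replicate 2, with no call in either fit.

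Mmp2, usually a product of stromal cells, was near the bottom of the range, at 2.77, 3.37 and 3.97 TPM in TREM2+ replicates 1, 2 and 3, against 2.7, 1.59 and 1.66 TPM in TREM2- replicates 1, 2 and 3. The groups did not overlap, but the lowest TREM2+ and the highest TREM2- library were close to each other. With 36 to 86 reads per library the log2 fold change was 0.56 ± 0.26 (adjusted p = 0.424 in limma). Of 12 stellate cell and fibroblast markers 9 stayed under 1 TPM in every library, among them Col1a1 and Pdgfra. The 12 markers summed to between 13.5 and 17.2 TPM in TREM2+ libraries, against 13.5 to 29.1 TPM in TREM2- libraries.

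Mmp19, a secreted protease of basement membrane proteins, was at 25.9, 19.9 and 12.7 TPM in TREM2+ replicates 1, 2 and 3, against 5.72, 25.1 and 8.75 TPM in TREM2- replicates 1, 2 and 3. TREM2- replicate 2 lay among the TREM2+ libraries while the other TREM2- libraries lay below them all. This gave a log2 fold change of 0.72 ± 0.48 (adjusted p = 0.644 in limma), and 1.29 without TREM2- replicate 2 (adjusted p = 0.0715 in limma).

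Among the inhibitors, Timp1 encodes a soluble inhibitor that binds many metalloproteinases and the Mmp9 precursor. Its levels were 20.2, 16.9 and 16.5 TPM in TREM2+ replicates 1, 2 and 3, against 6.95, 21.1 and 9.28 TPM in TREM2- replicates 1, 2 and 3. TREM2- replicate 2 again stood out, here above every TREM2+ library. A log2 fold change of 0.62 ± 0.36 resulted (adjusted p = 0.56 in limma), and without that library it was 1.06 (adjusted p = 0.0921 in limma). Timp1 and Mmp19 followed each other across the 6 libraries, with a Pearson correlation of 0.96 on log2(TPM + 1). Timp1 and Mmp9 did not, at -0.39. These points share library, depth and group, so both values are descriptions.

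Timp2 encodes the inhibitor that, together with Mmp14, also takes part in the activation of the Mmp2 precursor. It was the most abundant inhibitor, at 61.0, 58.1 and 64.8 TPM in TREM2+ replicates 1, 2 and 3, against 48.4, 35.2 and 31.5 TPM in TREM2- replicates 1, 2 and 3. The TREM2+ libraries lay within 1.12-fold of each other and above all TREM2- libraries. The log2 fold change of 0.68 ± 0.23 had an unadjusted p of 0.0146 and adjusted p = 0.213 in limma, so it was not called. It was called only with library weights (adjusted p = 0.0127 in limma), as was Mmp9 (adjusted p = 0.0384 in limma). Over the other settings the adjusted p of Timp2 in limma ran from 0.0502, with median-of-ratios scaling, to 0.845, on deposited values. It was 0.0617 with limma's voom.

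Timp3 encodes the inhibitor that stays bound to the extracellular matrix and also blocks several ADAM proteases. Its levels were 5.58, 2.81 and 3.39 TPM in TREM2+ replicates 1, 2 and 3, against 0.537, 0.807 and 0.401 TPM in TREM2- replicates 1, 2 and 3. The groups were well apart, on 163 to 350 reads in TREM2+ libraries, against 21 to 49 reads in TREM2- libraries. Timp3 passed the filter of 1 TPM in at least 3 libraries only through the TREM2+ group. The log2 fold change was 1.61 ± 0.29 on the log2(TPM + 1) scale (adjusted p = 0.0245 in limma) and 2.67 ± 0.39 with voom on recovered reads. The call was lost without TREM2- replicate 1 (adjusted p = 0.0604 in limma) and without TREM2- replicate 3 (adjusted p = 0.107 in limma). Without any 1 TREM2+ library the gene fell below the filter and was not tested.

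Endothelial markers were higher in the TREM2+ libraries, as were Timp3, Mmp12, Mmp13, Mmp14 and Mmp27. Of 12 such genes 11 were tested, 7 were called higher and 0 lower, of which 3 (Cdh5, Tek and Ptprb) passed the filter only through the TREM2+ group. Kdr and Stab2, also called, reached 1 TPM in only 1 and 2 TREM2- libraries, so they too needed the TREM2+ libraries to pass. The calls of Cdh5, Tek, Ptprb, Kdr and Stab2 thus add no support. Over all genes tested, 2.05% were called higher. At an unadjusted p under 0.05, 11 were higher and 0 lower, and with voom 9 were higher and 0 lower. The higher counts over all genes were 1027 of 13788 unadjusted and 447 of 13350 with voom. Emcn, not called in limma, also passed the filter only through the TREM2+ group. The median log2 fold change of the list was 1.69, beside -0.09 for all genes tested. The 12 summed to between 492 and 698 TPM in TREM2+ libraries, against 195 to 269 TPM in TREM2- libraries. Much of these sums was Fcgr2b, at 241 to 412 TPM in TREM2+ libraries, against 144 to 240 TPM in TREM2- libraries. Clec4g lay between 124 and 189 TPM in TREM2+ libraries, against 7.39 to 19.1 TPM in TREM2- libraries. None of the 12 was at 0 in all libraries. The part of these cells in the level of Timp3, or of any other gene here, was not tested. Across the 6 libraries Timp3 had a Pearson correlation of 0.99 with Mmp27 and of 0.92 with each of Mmp12 and Mmp14, all of which separate the same 3 against 3 libraries.

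Counting over all 10 genes, the TREM2+ libraries all lay above the TREM2- libraries for 7, of which 5 were proteases and 2 inhibitors. Over all genes tested that was so for 9.07%, and the reverse, with all TREM2+ libraries below, for 7.62%. The reverse was so for 0 of the 10 genes. Timp3, counted among the 2 inhibitors, entered the tested genes only through the TREM2+ group, so its place in the count adds no support. An exact permutation test of any single gene cannot give a two-sided p below 0.1 with 3 against 3 libraries.

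Set against each other within a library, proteases outweighed inhibitors in every library, and more so in the TREM2+ libraries. The 7 proteases summed to 763, 807 and 915 TPM in TREM2+ replicates 1, 2 and 3, against 391, 223 and 317 TPM in TREM2- replicates 1, 2 and 3. The 3 inhibitors summed to 86.8, 77.9 and 84.7 TPM in TREM2+ replicates 1, 2 and 3, against 55.9, 57.2 and 41.2 TPM in TREM2- replicates 1, 2 and 3. Both sums were thus higher in every TREM2+ library. Their ratio was 8.79, 10.4 and 10.8 in TREM2+ replicates 1, 2 and 3, against 6.99, 3.91 and 7.68 in TREM2- replicates 1, 2 and 3, with means of 9.99 ± 1.06 and 6.20 ± 2.01 (SD, n = 3 each). A ratio within a library does not depend on how libraries are scaled to each other. No test is given for a sum over chosen genes.

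**Figure D3:**
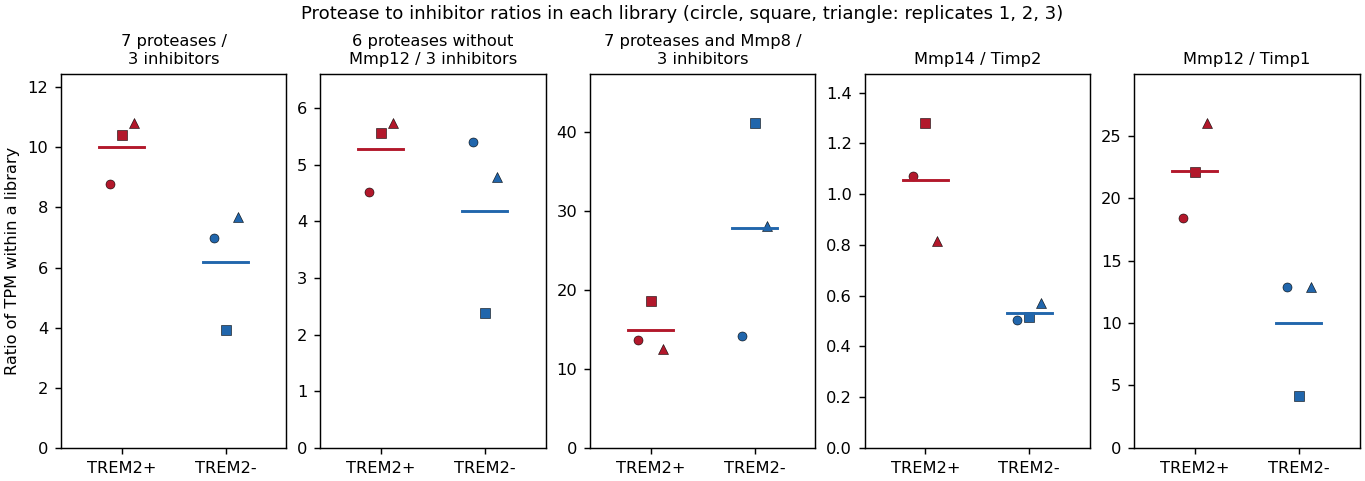
Ratios of TPM within each library, with TREM2+ libraries in red and TREM2- libraries in blue and bars for group means (n = 3), each panel on its own axis from 0. The ratio of the 7 proteases to the 3 inhibitors separates the groups, and does not once Mmp12 is left out or Mmp8 is added.

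Mmp12 was the largest part of the protease sum in TREM2+ libraries. It made up 48.6%, 46.4% and 46.9% of the protease sum in TREM2+ replicates 1, 2 and 3, against 22.9%, 39.1% and 37.8% in TREM2- replicates 1, 2 and 3. The share of Mmp9 ran the other way, between 19.2% and 23.1% in TREM2+ libraries, against 29.9% to 58.3% in TREM2- libraries. In sums formed without Mmp12, chosen after seeing the data, the ratio of proteases to inhibitors was 5.27 ± 0.655 in TREM2+ libraries, against 4.18 ± 1.59 in TREM2- libraries (SD, n = 3 each), and the groups overlapped.

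Ratios of single enzymes to single inhibitors did not all behave alike. The ratio of Mmp14 to Timp2 was 1.07, 1.28 and 0.817 in TREM2+ replicates 1, 2 and 3, against 0.503, 0.516 and 0.573 in TREM2- replicates 1, 2 and 3, without overlap. That of Mmp12 to Timp1 was 18.4, 22.1 and 26.0 in TREM2+ replicates 1, 2 and 3, against 12.9, 4.13 and 12.9 in TREM2- replicates 1, 2 and 3, also without overlap. For Mmp13 to Timp1 the lowest TREM2+ library, at 5.65, was just above the highest TREM2- library, at 5.58. The ratio of Mmp9 to Timp1 overlapped, at 8.68 to 12.8 in TREM2+ libraries, against 3.16 to 32.8 in TREM2- libraries, and so did that of Mmp2 to Timp2, at 0.0454 to 0.0613 in TREM2+ libraries, against 0.0452 to 0.0557 in TREM2- libraries.

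Ordered by mean TPM over the 6 libraries, the genes ran from Mmp12 (245 TPM) through Mmp9 (159), Mmp13 (99.4), Timp2 (49.9), Mmp14 (42.2), Mmp19 (16.3), Timp1 (15.2), Mmp27 (4.95) and Mmp2 (2.68) to Timp3 (2.25). Mmp12 was above Mmp9 in 5 of the 6 libraries; in TREM2- replicate 1 the ratio of Mmp12 to Mmp9 was 0.394. Mmp19 and Timp1, neighbours in this order, were close to each other in every library.

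The 10 Mmp genes of the chromosome 9 cluster span 427 kb (7272514 to 7699585, mm10, GENCODE M21) and differed by orders of magnitude in level. Mmp12, Mmp13 and Mmp27 were higher in the TREM2+ libraries. Mmp8, the neutrophil collagenase and the neighbour of Mmp27, was at 422, 639 and 144 TPM in TREM2+ replicates 1, 2 and 3, against 405, 2126 and 839 TPM in TREM2- replicates 1, 2 and 3. Mmp8 had the opposite sign, with a log2 fold change of -1.40 ± 0.66 that did not pass (adjusted p = 0.438 in limma). The 6 others, Mmp1a, Mmp1b, Mmp3, Mmp7, Mmp10 and Mmp20, had group means under 1 TPM in both groups and were not tested.

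**Figure D4:**
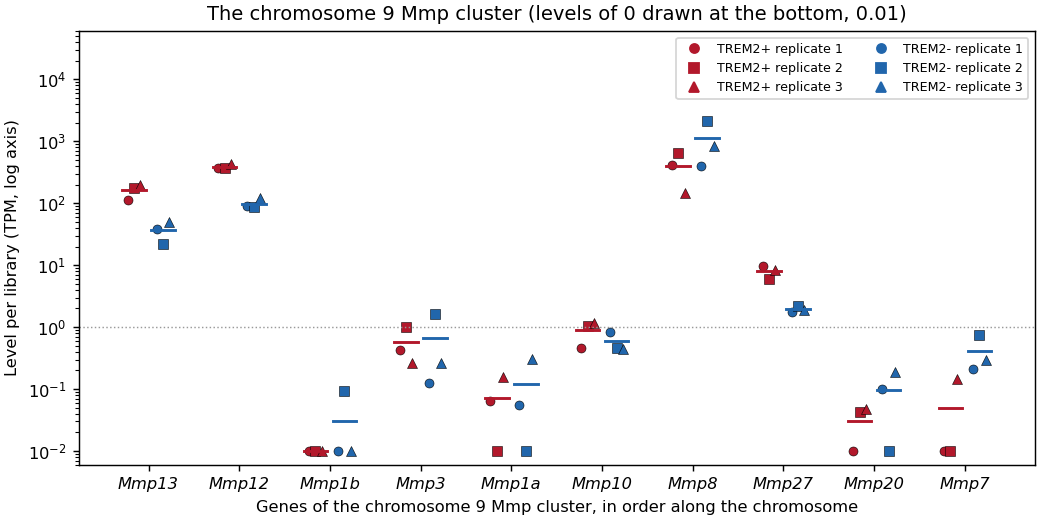
Level per library (TPM, log axis) of the 10 Mmp genes of chromosome 9 in their order along the chromosome, TREM2+ in red and TREM2- in blue, with bars for group means (n = 3) and a dotted line at 1 TPM. Mmp13, Mmp12 and Mmp27 stand higher in TREM2+ libraries, Mmp8 overlaps, and the other 6 genes have means under 1 TPM.

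Mmp8 is not among the 10 genes, and adding it, a choice made after seeing the data, turned the direction of the difference in means. With Mmp8 the ratio of proteases to inhibitors was 14.9 ± 3.23 in TREM2+ libraries, against 27.8 ± 13.4 in TREM2- libraries (SD, n = 3 each), with overlapping groups. Mmp25, a membrane protease known from neutrophils, was at 8.66, 10.3 and 9.75 TPM in TREM2+ replicates 1, 2 and 3, against 30.1, 7.38 and 12.9 TPM in TREM2- replicates 1, 2 and 3 (log2 fold change -0.54 ± 0.42, adjusted p = 0.716 in limma). Of the 17 other metalloproteinase and TIMP genes only Mmp8 and Mmp25 were tested, and 0 were called, also by unadjusted p and by voom. In the neutrophil list 1 of 10 genes was called lower, the granule gene Camp, and 0 higher. At an unadjusted p under 0.05, 1 was higher and 6 were lower, and with voom 3 were lower and 0 higher. The lower counts over all genes were 736 of 13788 unadjusted and 171 of 13350 with voom. The part of neutrophil RNA in Mmp8 or Mmp9 was not tested.

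Other matrix-degrading systems were read against the 2.05% called higher over all genes, a share at which lists of this size can hold no call. Their unadjusted counts stand beside 1027 higher and 736 lower of all 13788 genes tested. Their voom counts stand beside 447 higher and 171 lower of 13350. Of 23 ADAM and ADAMTS genes 11 were tested and 0 passed in limma. At an unadjusted p under 0.05, 3 were higher and 2 lower, and with voom 1 was higher and 0 lower. Adam23 had a log2 fold change of 0.87 ± 0.26 (adjusted p = 0.156 in limma) at 1.07 to 1.52 TPM in TREM2+ libraries, against 0.232 to 0.304 TPM in TREM2- libraries. Adamts1, which cleaves proteoglycans, had 0.78 ± 0.29 (adjusted p = 0.288 in limma) and Adam19 had -0.77 ± 0.29 (adjusted p = 0.298 in limma). Adam23 and Adamts1 passed the filter only through the TREM2+ group.

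The plasminogen system, whose product plasmin can convert metalloproteinase precursors, had 11 genes tested and 0 called in limma. At an unadjusted p under 0.05, 2 were higher and 2 lower, and with voom 1 was higher and 0 lower. Plau, the urokinase activator of plasminogen, had a log2 fold change of 0.90 ± 0.25 (adjusted p = 0.126 in limma), and the plasminogen receptor gene Plgrkt 0.83 ± 0.23 (adjusted p = 0.131 in limma), each with no overlap of the groups. The inhibitor Serpinb2 had -0.79 ± 0.33 (adjusted p = 0.351 in limma) and lower levels in every TREM2+ library. The median of this list was -0.28.

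Among 16 further inhibitors, activators and partners of metalloproteinases 11 were tested, and 1 was called higher and 0 lower in limma. At an unadjusted p under 0.05, 5 were higher and 0 lower, and with voom 2 were higher and 0 lower. The call in limma was Sparc, a secreted collagen-binding protein, which reached 61.5, 55.1 and 40.3 TPM in TREM2+ replicates 1, 2 and 3, against 8.89, 24.3 and 9.48 TPM in TREM2- replicates 1, 2 and 3 (log2 fold change 1.93 ± 0.37, adjusted p = 0.0315 in limma). Cd63, a membrane protein that binds Timp1, had 0.86 ± 0.21 (adjusted p = 0.0841 in limma), and the collagen-degrading cathepsin gene Ctsk 0.98 ± 0.32 (adjusted p = 0.204 in limma). Ctsk passed the filter only through the TREM2+ group. The membrane-anchored inhibitor Reck and the plasma inhibitor A2m were too low to be tested.

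Of 18 genes of matrix proteins that these enzymes cleave, 10 stayed under 1 TPM in all libraries, 6 were tested and 0 passed in limma. At an unadjusted p under 0.05, 2 were higher and 0 lower, and voom also called 2 higher and 0 lower. The highest was Fn1 (fibronectin), at 87.7, 67.5 and 27.7 TPM in TREM2+ replicates 1, 2 and 3, against 54.9, 98.1 and 46.6 TPM in TREM2- replicates 1, 2 and 3, with overlapping groups. Vcan, which encodes a large proteoglycan, lay between 3.51 and 15.0 TPM in TREM2+ libraries, against 10.3 to 29.5 TPM in TREM2- libraries. The values of Fn1 and Vcan were added after they were seen. The genes under the unadjusted threshold were the basement membrane collagens Col4a1, with a log2 fold change of 0.85 ± 0.26 (adjusted p = 0.179 in limma), and Col4a2, with 0.76 ± 0.27 (adjusted p = 0.254 in limma), which passed the filter only through the TREM2+ group. Nid1, another basement membrane gene, had 0.72 ± 0.33 (adjusted p = 0.406 in limma). It reached 1 TPM in only 1 TREM2- library, so it too needed the TREM2+ libraries to pass the filter. Elastin, the namesake substrate of Mmp12, was read from Eln at 0.0320 to 0.365 TPM in TREM2+ libraries, against 0.0497 to 0.250 TPM in TREM2- libraries.

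The genes most like the leading proteases and inhibitors were sought among tested genes with a mean of at least 10 TPM, by Pearson correlation of log2(TPM + 1) over the 6 libraries (5858 genes compared with each). For Mmp12 they were Hpgds (0.998), Gatm (0.996) and Tceal8 (0.994). For Mmp9 they were Ckb, Nudt4 and Pgap2 (0.981 to 0.988). For Timp2 they were Plgrkt, Dynlt3 and Ell (all 0.995). For Timp1 they were Plaur, the urokinase receptor gene (0.984), S100a16 (0.981) and Bst1 (0.975). Plaur, like Timp1, was highest in TREM2- replicate 2, at 1138 TPM, beside 708 to 827 TPM in TREM2+ libraries, against 291 and 379 TPM in TREM2- replicates 1 and 3. With 6 libraries in 2 groups, these values are descriptions.

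Some of the 10 genes overlap other annotated genes, and without a stated strand setting reads of overlapping genes cannot be told apart. Syn1 lies on the opposite strand at Timp1 (mean 1.27 TPM), Syn3 at Timp3 (0.0829 TPM), Mmp1b at Mmp12 (0.0154 TPM) and Tmem198b and Gm47093 at Mmp19 (1.97 and 0.195 TPM). Cep295nl overlaps Timp2 on the same strand (0.236 TPM). Each overlapping gene was thus listed at a lower mean level than the protease or inhibitor it overlaps.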

How the data were processed

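Polyadenylated RNA of 6 libraries was sequenced with paired ends, per the labels' protocols. Per the submitters' processing notes, STAR 2.7.10a, Subread, featureCounts 2.0.3 and mm10 were used. The sources used here do not give the formula, annotation or strand setting. The deposited values are named TPM, but the 6 columns sum to 1000000 together and not each, so the deposited unit is a length-scaled signal without scaling per library by the authors. The planned test assumed scaled TPM, and each column was rescaled here. Reads were recovered by multiplying the signal with exon lengths of GENCODE M21 (mm10). Of 36745 matched symbols above 0, 98.7% were whole within 0.01 read in all libraries. Symbols that were not whole held 4.9% to 7.5% of recovered reads in TREM2+ libraries, against 5.7% to 14.3% in TREM2- libraries. They were left out of the voom fit. Depth counts all matched symbols. It limits precision for counting error only.

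Genes reaching 1 TPM in 3 or more libraries entered limma 3.58.1 (R 4.3.3) on log2(TPM + 1), with trend, two-sided, Benjamini-Hochberg adjusted over all genes, threshold 0.05. Fold changes on this scale understate changes of low genes. The fit was also run on simulated counts with the same dispersion for every gene and, apart from planted changes, the same expected profile in all libraries. Those counts lacked the differing repeat family shares of these libraries, so that run does not measure error rates here. All 10 genes are named, with up to 3 genes of smallest p per pathway list; other genes named were chosen after their values were seen. Members and lists were chosen with earlier results of these data known. Alternatives covered pseudocount, filter, scaling, block, trend, weights, voom and left-out libraries; sums without Mmp12, without Mmp9 and with Mmp8 were added after seeing the data.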

Additional observations from a re-analysis of the deposited data

How the results depend on the processing

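No log2 fold change of the 10 genes changed sign in 18 other settings. Of 174 such values 157 stayed on the same side of the threshold, 15 lost the call and 2 gained it. Mmp12 and Mmp14 stayed called in 17 of 18 settings, Mmp13 in 14 and Mmp27 in 13, and Timp3 in 9 of the 13 in which it was tested. The 5 members called became 2 with no low-value filter and 2 with the replicate block (Mmp12 and Mmp14 in both), 0 without both libraries numbered 3, where 4 were higher at an unadjusted p under 0.05, and 3 to 5 when 1 library was left out (3 without TREM2+ replicate 1 or without TREM2- replicate 3). Mmp13 also lost the call without the repeat family and mitochondrial genes (adjusted p = 0.0506 in limma). Deviations from the group means correlated at 0.19, -0.03 and 0.22 for same-numbered libraries, and between -0.38 and 0.13 for differently numbered ones. With 3 libraries per group these values cannot tell whether equal numbers mark paired libraries.

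Over all genes, 282 were called higher and 51 lower. Higher calls numbered 95 with no filter, 116 with the replicate block, 976 with library weights, 447 with voom, 0 without both libraries numbered 3 (636 at an unadjusted p under 0.05), and 116 to 342 with 1 library left out. Lower calls numbered 31 with log2(TPM + 0.1), 3 with no filter, 97 with median-of-ratios scaling, 92 on deposited values, 82 without the repeat family and mitochondrial genes, 10 with the block, 389 with weights, 171 with voom, 0 without both libraries numbered 3 (444 unadjusted), and 7 to 105 with 1 library left out. Higher calls were 84.7% of all calls, against 69.1% on deposited values, 71.5% with weights and 72.3% with voom, and 96.9% with no filter and 92.1% with the replicate block. With 1 library left out the share ran between 72.4% and 97.1%. The difference in the mean ratio of proteases to inhibitors, 3.79, was 1.09 without Mmp12, 4.31 without Mmp9 and -12.88 with Mmp8. It was 2.65 to 4.53 with 1 library left out. The cause of these shifts was not tested. Depth limits Timp1, Timp3, Mmp27 and Mmp2, whose lowest libraries held 53, 21, 27 and 36 reads.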
